A study of Homo sapiens with 3 samples.

Results

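The genes of epithelial adhesion and of epithelial-mesenchymal transition (EMT) were followed in single prostate cancer cells: CDH1, EPCAM, CTNNB1, CDH2, VIM, FN1, ZEB1, ZEB2, SNAI2 and TWIST1. These 10 genes were chosen by name, out of 33423 genes listed in at least 1 of the 3 Drop-seq libraries, and a gene with no row in a library was counted as 0 there. Drop-seq captures single cells with barcoded beads in droplets and counts the 3′ ends of transcripts by unique molecular identifiers (UMIs). VCaP parental was the VCaP line kept in 0.1% DMSO for 48 h, VCaP-ENZ48 was the same line in 10 µM enzalutamide for 48 h, and LNCaP-ENZ168 was the LNCaP line in 10 µM enzalutamide for 168 h. VCaP and LNCaP are established human prostate cancer lines that depend on the androgen receptor, both are labelled as sensitive to enzalutamide, and enzalutamide blocks that receptor. Each group held 1 library, so every interval given here is a 95% interval of counting error and says nothing of the spread between cultures, and no test was possible.

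CDH1 encodes E-cadherin, which holds neighbouring epithelial cells together and is tied to the actin skeleton through catenins, among them beta-catenin from CTNNB1. In EMT, transcription factors such as ZEB1, ZEB2, SNAI2 and TWIST1 repress CDH1 and other epithelial genes, while N-cadherin (CDH2), the intermediate filament vimentin (VIM) and the matrix protein fibronectin (FN1) increase. Beta-catenin is also the transcriptional partner of TCF and LEF factors in Wnt signalling, and its activity is set largely at the protein level, which transcript counts do not see.

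VIM and FN1 were the members that differed most between LNCaP-ENZ168 and VCaP-ENZ48. For that reason the 250 bases before the start of each are shown, 5′ to 3′ on the gene's own strand. The sequences are those of RefSeq on GRCh38.p14, at chr10:17227991-17228240 on the plus strand for VIM and chr2:215436069-215436318 on the minus strand for FN1. Capitals mark the GC box GGGCGG or its complement CCGCCC, and in FN1 also the cyclic AMP response element TGACGTCA.
VIM: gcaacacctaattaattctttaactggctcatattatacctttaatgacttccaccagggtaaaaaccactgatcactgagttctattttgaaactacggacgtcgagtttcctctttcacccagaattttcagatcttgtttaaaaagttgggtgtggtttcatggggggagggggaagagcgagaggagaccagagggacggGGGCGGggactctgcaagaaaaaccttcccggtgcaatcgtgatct
FN1: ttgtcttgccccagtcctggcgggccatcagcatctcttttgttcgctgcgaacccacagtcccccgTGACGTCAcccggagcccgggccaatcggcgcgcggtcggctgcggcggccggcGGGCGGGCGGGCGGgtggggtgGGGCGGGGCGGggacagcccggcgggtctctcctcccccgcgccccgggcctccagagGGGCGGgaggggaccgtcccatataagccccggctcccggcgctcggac
The VIM window held 1 GC box and the FN1 window 6, some of which overlap. Among all 35116 promoter windows of this length, 42.6% held a GC box and 1.65% held TGACGTCA. The E-box CAGGTG or CACCTG, the kind of site that the ZEB and SNAI factors bind, was in neither window and was in 17.5% of all windows. These matches are descriptions of letters and were not tested for binding. Promoter entries were found for 6 of the 10 genes.

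Depth differed between the libraries and decided what could be seen of rare transcripts. After filtering, 997 cells of VCaP parental, 947 of VCaP-ENZ48 and 944 of LNCaP-ENZ168 were kept, with 19515202, 14301287 and 6313283 UMIs. The median was 17817 UMIs per cell in VCaP parental, 11224 in VCaP-ENZ48 and 5389 in LNCaP-ENZ168. A count of 0 therefore allowed up to 0.154, 0.210 and 0.475 counts per 1000000 UMIs (CPM) respectively, taken as 3 UMIs. Each pair of libraries shared 1 barcode, and 860, 869 and 212 of the 1000 barcodes deposited per library ended in N in place of a base. ERG, which VCaP carries as an androgen-driven fusion, stood at 105 CPM in VCaP parental, 57.1 CPM in VCaP-ENZ48 and 0 in LNCaP-ENZ168. Cells with at most 2 UMIs of cell cycle genes in 2000 made up 2.61% of VCaP parental, 29.4% of VCaP-ENZ48 and 5.09% of LNCaP-ENZ168. No library held a cell type known to lack these genes, so the share given by free RNA was not measured.

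The members fell into those measurable in every library, those measurable in 1 library, and those near 0 throughout. CDH1, EPCAM and CTNNB1 reached 10 CPM in all 3 libraries, VIM and FN1 did so in LNCaP-ENZ168 alone, and CDH2 and the 4 transcription factors did so in none. Levels are compared between libraries for each gene, not between genes, since a 3′ count is not a level per length.

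**Figure D1:**
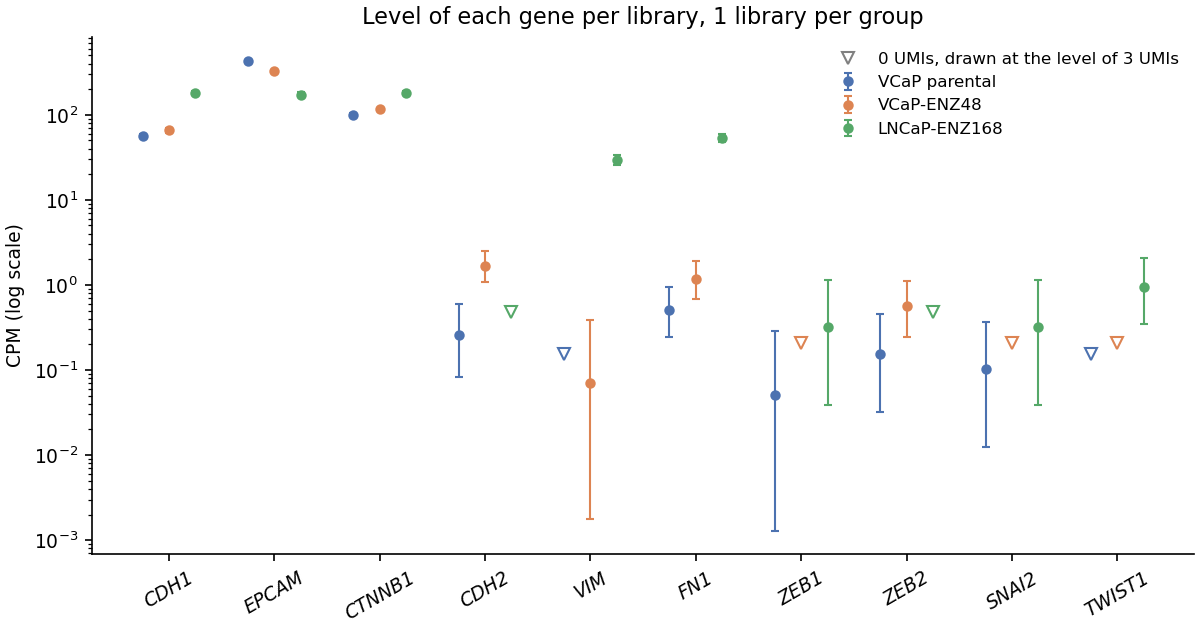
Level of each gene in CPM (log axis) in VCaP parental, VCaP-ENZ48 and LNCaP-ENZ168, 1 library each; bars are 95% Poisson intervals and open triangles mark 0 UMIs, drawn at the level of 3 UMIs. CDH1, EPCAM and CTNNB1 lie at 56.7 CPM or above in every library, VIM and FN1 stand out in LNCaP-ENZ168 alone, at 29.5 and 53.7 CPM, and the 4 transcription factors stay under 1 CPM.

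CDH1 (chr16:68737292-68835537, plus strand) stood at 56.7 CPM (53.4 to 60.2) in VCaP parental, 65.7 CPM (61.5 to 70.0) in VCaP-ENZ48 and 181 CPM (171 to 192) in LNCaP-ENZ168. The LNCaP library was thus the highest, and the intervals of the 3 libraries did not overlap. Without correction for depth, a CDH1 UMI was found in 62.1%, 51.4% and 62.0% of cells in that order. When each cell was thinned to 2000 UMIs, leaving 997, 917 and 943 cells, the shares were 10.6% (8.79 to 12.7), 13.5% (11.4 to 15.9) and 28.4% (25.6 to 31.4). The thinned shares followed the order of the CPM, whereas the unthinned shares did not.

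EPCAM (chr2:47345158-47387601, plus strand), an epithelial surface glycoprotein, ran in the opposite order. Its level was 428 CPM (419 to 438) in VCaP parental, 325 CPM (315 to 334) in VCaP-ENZ48 and 173 CPM (163 to 183) in LNCaP-ENZ168. The thinned shares of cells with a UMI were 49.3% (46.2 to 52.5), 44.3% (41.0 to 47.6) and 29.4% (26.5 to 32.4), against 947 of 997, 796 of 947 and 563 of 944 cells without thinning. The thinned intervals of the VCaP libraries overlapped, while that of LNCaP-ENZ168 lay below both.

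CTNNB1 (chr3:41194741-41260096, plus strand) was at 101 CPM (96.3 to 105) in VCaP parental, 116 CPM (110 to 121) in VCaP-ENZ48 and 180 CPM (169 to 191) in LNCaP-ENZ168. The thinned shares were 19.0% (16.6 to 21.5), 19.5% (17.0 to 22.2) and 32.2% (29.3 to 35.3). The VCaP libraries were not separable by share of cells, and LNCaP-ENZ168 was higher by both measures.

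VIM (chr10:17228241-17237593, plus strand) had no UMI in VCaP parental and 1 UMI in VCaP-ENZ48. In LNCaP-ENZ168 it had 186 UMIs, or 29.5 CPM (25.4 to 34.0), found in 129 of 944 cells, 13.7% (11.5 to 16.0). After thinning the share was 5.30% (3.96 to 6.93), and no thinned VCaP cell held a UMI, which, taken as 3 cells, allows up to 0.301% of VCaP parental and 0.327% of VCaP-ENZ48 cells with a UMI at that depth and does not limit the cells that express the gene. Most LNCaP cells therefore showed no VIM at this depth, and the highest cell held 7 UMIs.

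FN1 (chr2:215360440-215436073, minus strand) had 10 UMIs in VCaP parental (0.512 CPM, 0.246 to 0.942), 17 in VCaP-ENZ48 (1.19 CPM, 0.692 to 1.90) and 339 in LNCaP-ENZ168 (53.7 CPM, 48.1 to 59.7). The UMIs of LNCaP-ENZ168 came from 198 of 944 cells, 21.0% (18.4 to 23.7), and from 66 of 943 thinned cells, with an interval of 5.45 to 8.82%. They were uneven: the 10 cells with most FN1 held 31.3% of them, and the 3 highest cells held 36, 22 and 14. Without the 3 highest cells, an alternative chosen after seeing the data, FN1 stood at 42.6 CPM (37.6 to 48.0). Those 3 cells also held 3, 3 and 4 UMIs of CDH1 and none of VIM. In LNCaP-ENZ168 barcodes ending in N and the others, FN1 was at 55.2 and 53.3 CPM, and VIM at 39.5 and 27.1 CPM, with intervals that overlapped for both genes.

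CDH2 (chr18:27932879-28177946, minus strand) was highest in VCaP-ENZ48. It had 5 UMIs in 4 cells of VCaP parental (0.256 CPM, 0.0832 to 0.598), 24 UMIs in 21 cells of VCaP-ENZ48 (1.68 CPM, 1.08 to 2.50) and none in LNCaP-ENZ168. The intervals of the VCaP libraries did not overlap, and a UMI was found in 2.22% (1.38 to 3.37) of VCaP-ENZ48 cells without thinning. After thinning the shares were 0% (0 to 0.369) in VCaP parental and 0.654% (0.240 to 1.42) in VCaP-ENZ48, with intervals that overlapped. The 0 UMIs of LNCaP-ENZ168 allow up to 0.475 CPM, so it could not be told from VCaP parental.

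The transcription factors were rare everywhere. ZEB1, a zinc finger repressor, had 1, 0 and 2 UMIs in VCaP parental, VCaP-ENZ48 and LNCaP-ENZ168. ZEB2, its paralog, had 3, 8 and 0, and SNAI2, which encodes Slug, had 2, 0 and 2. TWIST1, a basic helix-loop-helix factor, had 6 UMIs in 6 LNCaP cells and none in either VCaP library. Any of the 4 was seen in 6, 7 and 10 cells in that order without thinning, and no difference in these genes within VCaP was detectable at this depth.

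**Figure D2:**
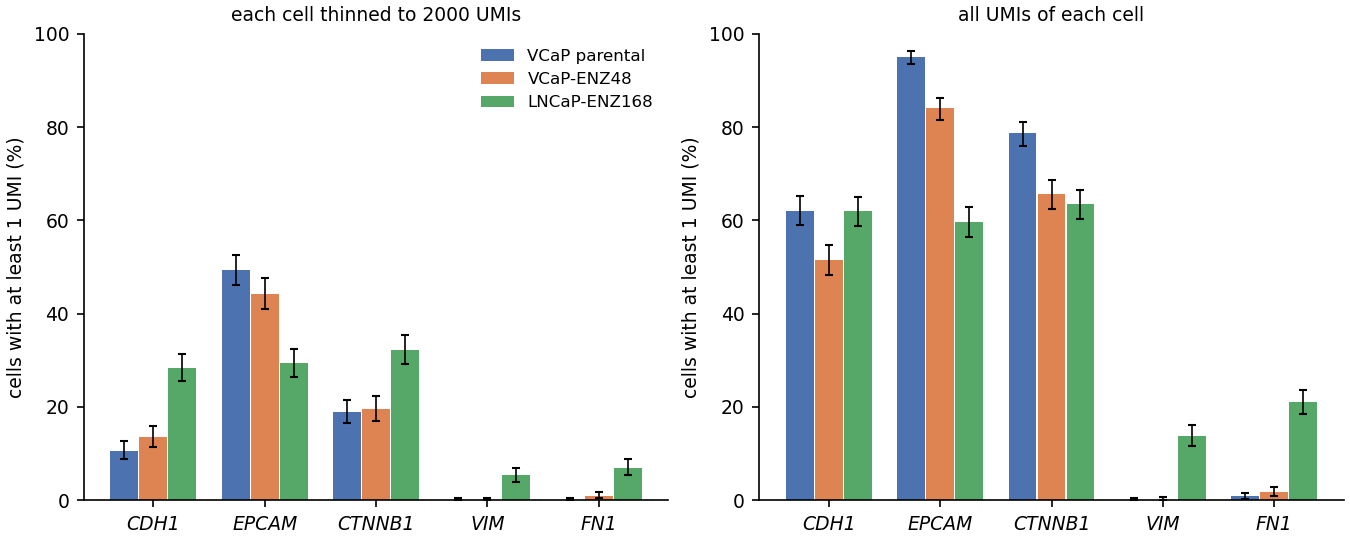
Share of cells with at least 1 UMI (percent, axis from 0 to 100) of CDH1, EPCAM, CTNNB1, VIM and FN1 in the 3 libraries, after thinning each cell to 2000 UMIs (left) and with all UMIs (right); bars are shares and whiskers 95% Clopper-Pearson intervals. CDH1 is near equal in VCaP parental and LNCaP-ENZ168 with all UMIs, at 62.1% and 62.0%, and differs after thinning, at 10.6% and 28.4%.

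The first comparison set VCaP-ENZ48 against VCaP parental, the same line with and without 48 h of enzalutamide, where drug and library differ together. None of the 3 members whose mean reached 10 CPM passed 2-fold, where 8.19% of 7729 genes did so upward and 6.77% downward. Ratios are given as log2 of CPM + 1, with the interval of the plain ratio of counts. EPCAM was lower, at -0.40 (-0.45 to -0.35), and lay at percentile 27.3 of all genes. CDH1 was at 0.21 (0.084 to 0.34) and CTNNB1 at 0.20 (0.10 to 0.29), beside a median of -0.066 over all genes. EPCAM stayed negative under every scaling and cell filter tried, from -0.74 to -0.27. CDH1 and CTNNB1 did not keep their sign. Scaling by the trimmed mean of M-values (TMM) gave -0.078 and -0.090, and median-of-ratios scaling gave -0.019 and -0.031. These scalings moved all genes alike, and against the median of all genes CDH1 was at 0.27 by total UMIs and 0.26 under both other scalings, and CTNNB1 at 0.26, 0.24 and 0.25. In low-cycling cells alone CDH1 was at -0.023. CDH2, under the expression minimum, had a ratio of 1.09 on the CPM + 1 scale, and its plain count ratio lay between 1.29 and 4.46 on the log2 scale.

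The change in cell cycle state went along with this comparison, so the members were also read in cells of the same low-cycling class. Among the 26 such cells of VCaP parental and 270 of VCaP-ENZ48, EPCAM stood at 493 CPM (430 to 562) and 294 CPM (279 to 311). The log2 ratio of EPCAM was -0.74 in that class and -0.40 in the whole libraries. The class held few cells of VCaP parental, and the part of the cell cycle in the difference was not tested. CDH1 stood at 61.9 CPM (41.1 to 89.5) and 60.9 CPM (53.9 to 68.6), and these intervals overlapped.

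The second comparison set LNCaP-ENZ168 against VCaP-ENZ48, both under enzalutamide, and is called below the comparison between the lines. Line, time in drug and library differ together and cannot be told apart, and VCaP-ENZ48 is shared with the first comparison. CDH1, VIM and FN1 passed 2-fold higher, 3 of the 5 members tested, where 35.5% of 8854 genes were past 2-fold higher and 11.1% lower. VIM and FN1 reached the mean of 10 CPM through LNCaP-ENZ168 alone. The minimum itself thus fixed that they passed 2-fold and ranked high. Neither the count nor their percentiles below carry support. The median of all genes was itself 0.65 on the log2 scale, so ratios are read against it. VIM was at 4.83, or 4.18 above that median, at percentile 99.3, and FN1 was at 4.64, or 3.99 above it, at percentile 99.2. The plain count ratio, which the added 1 CPM understates for rare genes, lay between 6.22 and 14.0 for VIM and between 4.80 and 6.29 for FN1, both on the log2 scale. CDH1 was at 1.45 (1.34 to 1.59), 0.79 above the median and at percentile 80.0. Under TMM and median-of-ratios scaling CDH1 was at 0.92 and 0.96, short of 2-fold, and 0.82 above the median of all genes in both.

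CTNNB1, at 0.63 (0.53 to 0.75), lay at the median of all genes, -0.022 from it. EPCAM was lower, at -0.91 (-1.01 to -0.81) and at percentile 11.8, a difference of -1.56 from the median of all genes. Under TMM, median-of-ratios and a total without mitochondrial and ribosomal protein genes EPCAM was at -1.43, -1.40 and -1.16, past 2-fold lower. CDH2 had 24 UMIs in VCaP-ENZ48 against none in LNCaP-ENZ168, and the interval of its plain count ratio had its upper end at -1.41 on the log2 scale. TWIST1 had 6 UMIs in LNCaP-ENZ168 against none, and the interval of its plain count ratio had its lower end at 1.42.

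**Figure D3:**
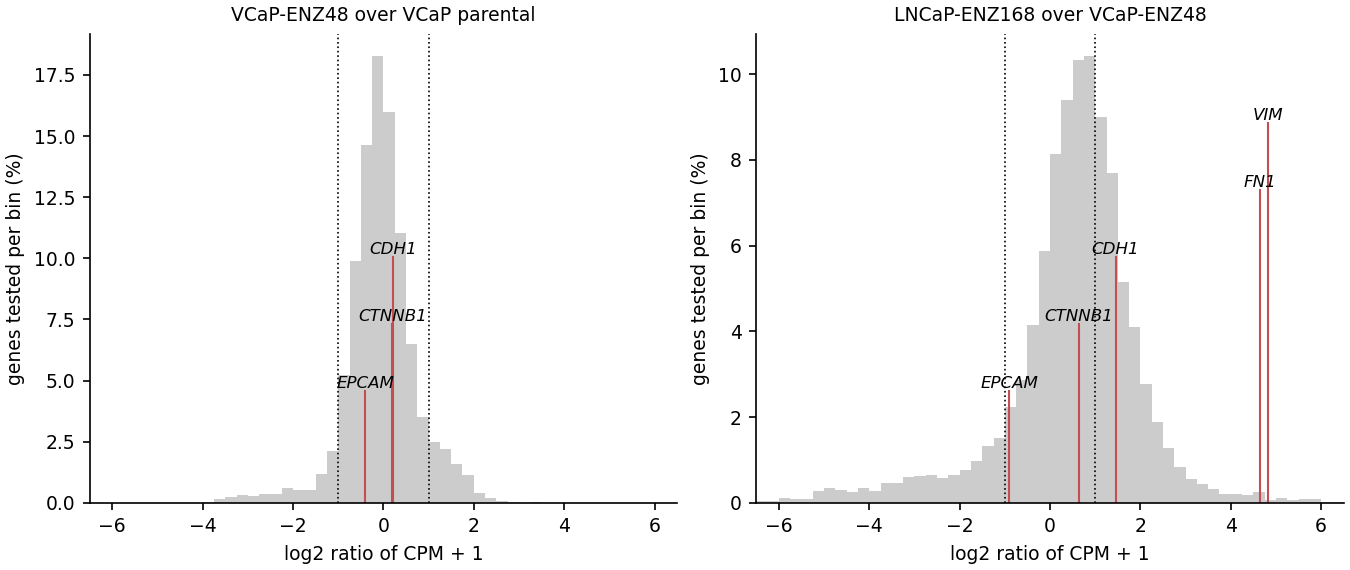
Distribution of log2 ratios of CPM + 1 over all genes whose mean reached 10 CPM (grey bars, percent of genes per bin of 0.25) for both comparisons; red lines mark the members and dotted lines 2-fold, and the heights of the red lines carry no value. CDH1, EPCAM and CTNNB1 lie within the dotted lines on the left. VIM (4.83) and FN1 (4.64) lie in the upper tail on the right, where the minimum of 10 CPM itself placed them.

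Within each library, the members were set against the depth of the cells, ranked and split into 3 groups of near equal size. VIM in LNCaP-ENZ168 stood at 32.5, 27.0 and 29.7 CPM from the shallowest to the deepest group, with overlapping intervals. FN1 stood at 49.1, 36.9 and 63.7 CPM, where the deepest group, which holds the highest cell, lay above the middle group. EPCAM varied with depth in each library, from 346 to 452 CPM over the groups of VCaP parental, 301 to 371 CPM in VCaP-ENZ48 and 152 to 205 CPM in LNCaP-ENZ168. The order of the 3 libraries for CDH1 was the same in each group. The VCaP intervals of CDH1 were apart in the shallowest group, at 54.4 and 83.6 CPM, and overlapped in the middle and deepest groups. For EPCAM, the VCaP libraries had overlapping intervals in the shallowest group, at 346 and 360 CPM, and VCaP parental was higher in the other groups. The groups do not match in depth between libraries, with medians in the shallowest group of 12922 UMIs per cell in VCaP parental, 4447 in VCaP-ENZ48 and 3854 in LNCaP-ENZ168.

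**Figure D4:**
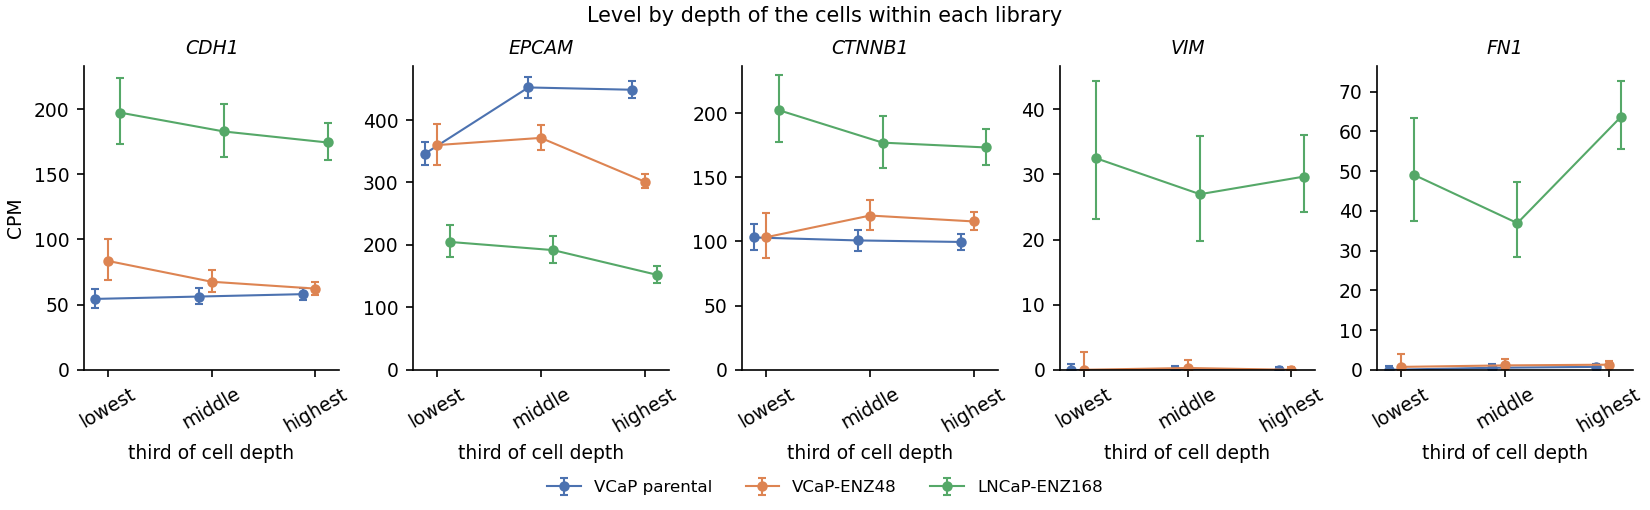
CPM of CDH1, EPCAM, CTNNB1, VIM and FN1 in cells of each library split by depth into 3 groups (horizontal axis, lowest to highest); points are levels and bars 95% Poisson intervals. LNCaP-ENZ168 is above both VCaP libraries in every group for CDH1, VIM and FN1 and below both for EPCAM.

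Epithelial and mesenchymal transcripts were found in the same LNCaP cells. Without thinning, 294 of 944 cells (31.1%, 28.2 to 34.2) held a UMI of VIM, FN1 or CDH2, and 260 of these also held CDH1 or EPCAM. CDH1 or EPCAM was in 782 of all 944 cells (82.8%), so frequent overlap does not set these cells apart. The share of cells with VIM, FN1 or CDH2 was 1.20% in VCaP parental and 4.01% in VCaP-ENZ48. After thinning the shares were 12.1% (10.1 to 14.3) in LNCaP-ENZ168, 0.100% in VCaP parental and 1.53% in VCaP-ENZ48. Of the 114 thinned LNCaP cells with VIM, FN1 or CDH2, 64 also held CDH1 or EPCAM. CDH1 or EPCAM was found in 54.7%, 51.9% and 49.8% of thinned cells of VCaP parental, VCaP-ENZ48 and LNCaP-ENZ168, with intervals that overlapped. Cells with either epithelial gene were thus about as frequent in the 3 libraries, while each gene alone differed between LNCaP-ENZ168 and the VCaP libraries.

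In thinned LNCaP cells CDH1 was found in 29 of 66 cells with FN1 (43.9%, 31.7 to 56.7) and in 239 of 877 cells without it (27.3%, 24.3 to 30.3). CDH1 was found in 24.0% (13.1 to 38.2) of 50 cells with VIM and in 28.7% (25.7 to 31.8) of 893 cells without it. EPCAM was found in 28.8% (18.3 to 41.3) of cells with FN1 and 29.4% (26.4 to 32.6) of cells without. EPCAM was found in 16 of 50 cells with VIM and 261 of 893 cells without. The intervals for CDH1 by FN1 did not overlap, with the higher share in cells with FN1, and the other pairs overlapped. VIM and FN1 were found together in 2 thinned cells. Cells of 1 library are not replicates, and these shares describe that library.

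The neighbours of the members were read from 14 lists of related genes, with 181 genes in all, of which 166 had a row in some library. In the comparison within VCaP, 67 list genes reached a mean of 10 CPM, of which 9 (13.4%) were past 2-fold higher and 1 (1.49%) lower, beside 8.19% and 6.77% of all genes. Under TMM scaling these became 3 higher and 4 lower, beside 5.75% and 12.6% of all genes. In the comparison of lines 32 of 78 list genes (41.0%) were higher and 10 (12.8%) lower, beside 35.5% and 11.1% of all genes, and under TMM scaling 19 were higher and 18 lower, beside 17.3% and 17.2% of all genes. TMM moved the median of all genes by -0.27 and -0.55 on the log2 scale in the respective comparisons, and so moved the counts of list genes with it. Between the lines COL5A2, LEF1, LUM, SOX9, THBS1 and TNFRSF19, among others, reached the mean of 10 CPM through 1 library alone. The same held for RAB25 within VCaP. The minimum itself thus fixed that such genes passed 2-fold, so counts that hold them carry no support.

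Junction genes of VCaP passed 2-fold no more often than the 8.19% and 6.77% of all genes, in lists too small to set them apart. Of 7 adherens junction genes tested 1 was past 2-fold, and of 11 tight junction and 7 desmosome genes none was. The gene past 2-fold was JUP, which encodes plakoglobin, the close relative of beta-catenin: it rose from 10.3 to 33.1 CPM, a log2 ratio of 1.60 (1.45 to 1.93). CTNNA1, the alpha-catenin that links the cadherin complex to actin, was at 112 and 83.8 CPM, and the tight junction gene CLDN4 at 131 and 235 CPM, both short of 2-fold. PERP, a desmosome-associated membrane protein, was at 95.2 and 118 CPM.

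Between the lines, where 35.5% of all genes were past 2-fold higher and 11.1% lower in LNCaP-ENZ168, the same lists had 3 of 8 adherens junction, 7 of 12 tight junction and 5 of 7 desmosome genes past 2-fold higher, and 0, 1 and 1 lower. The adherens junction count was near the share of all genes, and the tight junction and desmosome lists are too small to set apart from it. Such counts move with scaling. TMM moved the median of all genes by -0.55, and PERP, among the desmosome genes past 2-fold, was at 1.03. The list medians were 0.88, 1.47 and 1.32, beside 0.65 over all genes. CTNNA1 was at 264 CPM in LNCaP-ENZ168, a log2 ratio of 1.64, and MARVELD2, the tricellulin of contacts where several cells meet, was at 254 against 29.8 CPM, a log2 ratio of 3.05. PERP was at 242 CPM and CLDN4 at 161 CPM in LNCaP-ENZ168.

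Among epithelial surface genes, 2 of 9 were past 2-fold higher in VCaP-ENZ48, and between the lines 4 of 10 were higher and 2 lower in LNCaP-ENZ168, beside 8.19% of all genes higher in the first and 35.5% higher and 11.1% lower in the second. RAB25, a GTPase of epithelial membrane traffic, rose from 5.59 to 20.8 CPM (log2 ratio 1.73). RAB25 was higher still in LNCaP-ENZ168, at 119 CPM. CD24, a surface glycoprotein, was at 395 CPM in VCaP-ENZ48 and 9.66 CPM in LNCaP-ENZ168, a log2 ratio of -5.22. SPINT2, an inhibitor of matriptase-type proteases, was at 567, 445 and 1036 CPM in the 3 libraries. Of the epithelial transcription and splicing factors 1 of 6 was past 2-fold higher within VCaP and 1 of 7 between the lines, beside 8.19% and 35.5% of all genes. The list median was 0.39 within VCaP, beside -0.066 over all genes, and 0.016 between the lines, beside 0.65. Between the lines 1 of the 7 lay above the median of all genes. EHF, an ETS factor of epithelia, was at 293, 229 and 264 CPM.

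The other EMT transcription factors gave 2 genes measurable within VCaP, and they moved in opposite directions. SOX4 fell from 373 to 140 CPM, a log2 ratio of -1.41 (-1.49 to -1.34), and was the only list gene past 2-fold lower. SOX9 rose from 23.6 to 65.3 CPM, 1.43 (1.30 to 1.63). Both are SRY-related factors with roles well beyond EMT, SOX9 in prostate epithelium among them. In LNCaP-ENZ168 SOX4 was at 138 CPM and SOX9 at 5.39 CPM. Of 3 genes of this list tested between the lines 1 was past 2-fold higher and 1 lower, too few to set beside the 35.5% and 11.1% of all genes.

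Mesenchymal matrix and cytoskeleton genes gave 7 tested of 35 between the lines, and 12 of the 35 had no UMI in LNCaP-ENZ168. Of the 7, 4 were past 2-fold higher in LNCaP-ENZ168 and 1 lower, beside 35.5% and 11.1% of all genes. So small a list cannot be set apart from those shares. CALD1, the actin-binding caldesmon, was at 302, 389 and 2260 CPM in the 3 libraries. COL5A2 and COL6A1, collagen chains, were at 69.7 and 96.8 CPM in LNCaP-ENZ168 against 0.769 and 9.65 CPM in VCaP-ENZ48, log2 ratios of 5.32 and 3.20. THBS1, the matrix glycoprotein thrombospondin-1, went the other way, at 52.9 CPM in VCaP-ENZ48 and 1.27 CPM in LNCaP-ENZ168 (-4.57). It was also the 1 gene of 5 past 2-fold higher within VCaP, from 25.9 CPM, beside 8.19% of all genes. Between the lines the minimum of 10 CPM itself fixed that COL5A2 and THBS1 passed 2-fold. The list summed to 904 CPM in VCaP-ENZ48 and 2915 CPM in LNCaP-ENZ168, and CALD1 gave most of the latter. The median log2 ratio of the 7 tested genes was 1.48, beside 0.65 for all genes, and 4 of the 7 lay above 0.65.

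Beta-catenin turnover genes showed none of 7 past 2-fold within VCaP and 4 of 8 higher in LNCaP-ENZ168, near the 8.19% and 35.5% of all genes for lists of this size. The median of the list between the lines, 0.70, was close to the 0.65 of all genes. CSNK1A1, the kinase that primes beta-catenin for destruction, was at 165, 144 and 509 CPM. Among Wnt target genes, LEF1, itself a partner of beta-catenin, was at 41.4, 36.8 and 2.22 CPM, and TNFRSF19, a receptor of the tumour necrosis factor family, at 1.18, 1.33 and 19.0 CPM. These 2 genes, the only ones of 14 tested between the lines, lay on opposite sides. Each reached the mean of 10 CPM through 1 library alone, so the minimum itself fixed that it passed 2-fold. Of TGF-beta receptors and SMADs none of 4 was past 2-fold within VCaP and 1 of 5 was higher between the lines, near the same 8.19% and 35.5% for so small a list. SMAD2 was at 27.1, 25.8 and 42.5 CPM.

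**Figure D5:**
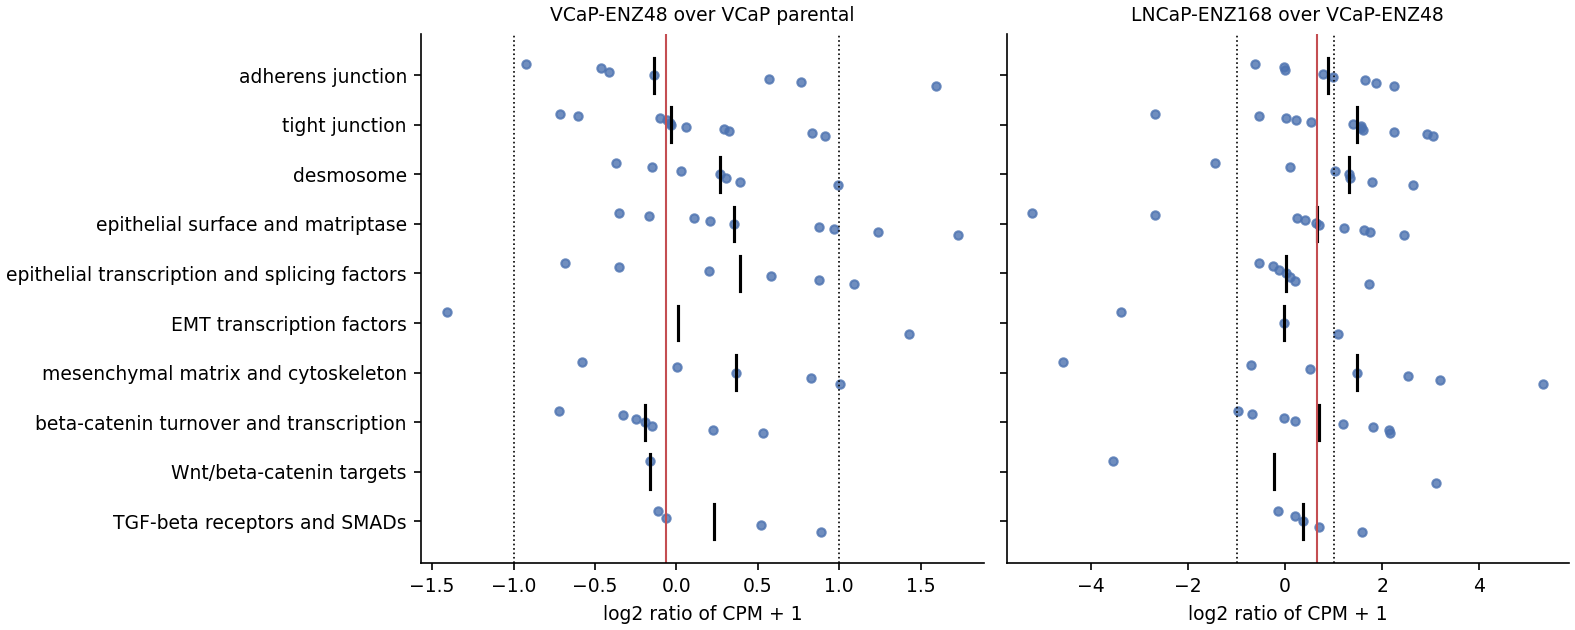
log2 ratio of CPM + 1 of every tested gene (points) of 10 gene lists, for VCaP-ENZ48 over VCaP parental (left) and LNCaP-ENZ168 over VCaP-ENZ48 (right); black ticks are list medians, the red line the median of all genes and dotted lines 2-fold. On the right the red line lies at 0.65, and the tight junction and mesenchymal lists have medians of 1.47 and 1.48.

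All 8 luminal prostate markers had UMIs in all 3 libraries. Of 7 tested within VCaP, 3 were past 2-fold higher, beside 8.19% of all genes. In LNCaP-ENZ168, 1 of 8 was higher and 2 lower than in VCaP-ENZ48, beside 35.5% and 11.1% of all genes. KLK2, an androgen-driven kallikrein, was at 1554, 3053 and 27.1 CPM, and it is close in sequence to KLK3, so its count is uncertain. Markers of other cell types were low. Fibroblast markers summed to 21.6, 26.9 and 6.97 CPM over 8 genes, with 4, 1 and 4 of them at 0. LUM, which encodes lumican, made most of that sum in VCaP, at 21.0, 25.2 and 0.317 CPM in the 3 libraries, and was the only one of the list that could be compared. The 4 endothelial markers summed to 0.256, 0 and 2.06 CPM and the 4 leukocyte markers to 1.69, 1.82 and 0.317 CPM, with VWF and CD14 the highest of each. Without LUM the other 7 fibroblast markers summed to 0.615, 1.61 and 6.65 CPM, highest in the library where VIM and FN1 were high. COL3A1, a fibrillar collagen chain, gave most of that, at 0, 0.0699 and 4.91 CPM, and COL1A1 was at 0.410, 0.839 and 1.58 CPM. The part of these markers in the levels of VIM and FN1 was not tested.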

How the data were processed

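Single cells of 2 prostate cancer lines were profiled by Drop-seq in 3 libraries, 1 per group, and 1000 barcodes per library were deposited. The authors deposited unnormalized UMI counts, genes by barcodes, made with the Drop-seq tools and STAR on GRCh38 (also named hg38) with Gencode genes. Each file held 1000 barcodes, the number of cells the study's methods expected.

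A barcode was kept as a cell if it held 300 or more genes and 500 or more UMIs, with mitochondrial genes giving no more than 25% of the UMIs. Counts were summed over cells per library and divided by all UMIs (CPM). Levels have Poisson, ratios exact conditional and shares Clopper-Pearson intervals at 95%; a count of 0 was read as allowing 3 counts. These cover counting error only. Ratios are log2 of CPM + 1, over genes whose mean in the pair reached 10 CPM, and past 2-fold counted as called. No doublet caller was run; barcodes above 3 times the median depth were left out as an alternative. Shares were also computed after thinning each cell to 2000 UMIs. Cell cycle genes were those of Seurat (5.3.0). Alternatives used TMM factors of edgeR (4.0.16) and size factors of DESeq2 (1.42.0), and neither was used as a test. Python (3.11.15), numpy (2.4.6) and scipy (1.17.1) were used, and the ratios and the thinning were tested on simulated data.

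Members and gene lists were chosen with earlier results of these data known. Named were all 10 members, the gene of each list with the highest mean CPM, and in each comparison the 4 largest rises and falls past 2-fold over all lists; a gene that this rule names is not reported here. Gene positions are those of a later Gencode release on GRCh38, and the promoter sequences, from RefSeq, equal the GRCh38 genome.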

Additional observations from a re-analysis of the deposited data

How the results depend on the processing

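No paired analysis was possible because there was 1 library in each group, and for the same reason no library could be left out. CDH1, EPCAM and CTNNB1 were at 10 CPM or more in all 3 libraries, and VIM and FN1 in LNCaP-ENZ168, under every cell filter and scaling tried. Within VCaP the count of members past 2-fold higher went from 0 to 1 with no expression minimum, beside 6.44% of all genes. Between the lines, members higher went from 3 to 1 with a minimum of 50 CPM, and members lower from 0 to 1 under TMM, median-of-ratios, a total without mitochondrial and ribosomal protein genes, no minimum, and 1.5-fold.

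Of list genes within VCaP, 9 were higher, against 3 under TMM, 4 under median-of-ratios, 16 without mitochondrial and ribosomal protein genes in the total, 5 with a pseudocount of 5 CPM, 3 with a minimum of 50 CPM and 20 at 1.5-fold. The shares of all genes beside these were 8.19%, then 5.75%, 6.36%, 11.4%, 6.22%, 5.03% and 15.6%. List genes lower within VCaP numbered 1, against 4 under TMM, 2 under median-of-ratios, 8 in low-cycling cells alone, 2 without barcodes above 3 times the median depth and 6 at 1.5-fold. Beside these, 6.77%, then 12.6%, 11.3%, 6.05%, 7.23% and 17.9% of all genes were lower. Between the lines 32 were higher, against 19 under TMM, 20 under median-of-ratios, 53 with no minimum and 18 with a minimum of 50 CPM, and 10 were lower, against 18, 18, 20 and 3. Of all genes, 35.5%, then 17.3%, 18.2%, 17.4% and 30.5% were higher. In the same order 11.1%, then 17.2%, 16.8%, 11.4% and 9.48% of all genes were lower. The cause was not tested, other than that a minimum changes which genes are counted. Depth limits the transcription factors, CDH2 and the VIM counts of VCaP, where a few UMIs decide a value.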
